A study of Mus musculus with 24 samples.

Results

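The genes described here are 7 globins and the erythroid heme synthesis gene *Alas2*, chosen by symbol from the 54658 genes of the count table. All 8 were present, and all 24 libraries were used. *Hbb-y*, *Hbb-bh1* and *Hba-x* are the embryonic globins. *Hba-a1*, *Hba-a2*, *Hbb-bt* and *Hbb-bs* are the adult-type globins. The libraries came from 12 mouse embryos, 6 at E11.5 and 6 at E14.5 (embryonic days). At each age 3 embryos were mutant, labelled Cep135 (-/-), and 3 were control, labelled Cep135 (+/+). The mutation was made with CRISPR in zygotes, in a line kept on C57BL/6J, and the study detected no CEP135 protein from the mutant allele. Embryos came from matings of heterozygous parents, and all cells of a mutant embryo carry the mutation, blood included. Dorsal telencephalon (cortex) of each embryo was sequenced, and cells of the 6 E14.5 cortices were also dissociated with papain and sequenced after 12 and 24 hours in suspension with EGF and FGF2, as incipient neurospheres. E11.5 mutants are called A, B and C and E11.5 controls D, E and F. E14.5 mutants are 1, 2 and 6 and E14.5 controls are 3, 4 and 5, with the same numbers in culture.

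Hemoglobin is built from alpha-type and beta-type chains, each holding a heme. Mouse embryos make their first red cells in the yolk sac with embryonic chains. These nucleated cells circulate while the fetal liver starts to release red cells with adult-type chains, so the globin RNA of blood changes from embryonic to adult-type in midgestation. Neurons and neural progenitors are not erythroid cells, and globin RNA in a dissected cortex is usually read as RNA of the blood in its vessels. In bulk RNA, fewer red cells and less RNA per red cell cannot be told apart.

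The libraries held 4732781 to 11645213 reads on genes. Values are normalized read counts, the number of reads on a gene divided by 1 size factor per library, and reads come from the 3′ ends of polyadenylated RNA. All 9 markers of dorsal telencephalon and neural progenitors (among them *Emx2*, *Pax6* and *Neurod6*) were above 0 at each age, with a summed level of 7643 to 10498 at E11.5 and 8742 to 12118 at E14.5. *Cep135* RNA was 173 to 336 in mutant cortices and 171 to 375 in controls. Reads at the 3′ end do not cover the deleted bases, so this level checks nothing about the genotype. Transcripts of 13 liver genes summed to 127 to 1612 in 12 libraries and to 1.57 to 15.6 in the other 12. The 12 libraries with liver transcripts were E11.5 mutants A and C, E14.5 controls 4 and 5, the 12 h cultures of all embryos but control 3, and the 24 h cultures of all 3 mutants. In these 12 libraries *Alb* was 27.2 to 379, while *Afp*, which fetal liver expresses strongly, was 0 to 1.12 in all 24. Fits of single genes were also run with the liver sum as a term. Age comparisons of single genes, of embryonic globin shares and of the globin sum were also run without these libraries. So was the genotype comparison of these shares and this sum over the 12 cortices. No other comparison of a share, ratio or sum was rerun in this way, including those within 1 condition and in culture. The cortex of mutant 6 is labelled E14.5 in its title and source and E11.5 in its description. It was kept at E14.5, and its *Hbb-bh1* level of 23.5 lay within the 13.5 to 38.5 of the other E14.5 cortices, below the 2617 to 5609.5 of the E11.5 cortices. As *Hbb-bh1* is itself a member, this level is not an independent check of the age.

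The beta-type genes lie in 1 cluster on chromosome 7 (GRCm38, GENCODE vM21) and the alpha-type genes in 1 cluster on chromosome 11. *Hbb-y* is at chr7:103851749-103853216, minus strand, *Hbb-bh1* at chr7:103841637-103843164, minus strand, *Hbb-bs* at chr7:103826534-103828096, minus strand and *Hbb-bt* at chr7:103812524-103813996, minus strand. *Hba-x* is at chr11:32276400-32278116, plus strand, *Hba-a1* at chr11:32283511-32284465, plus strand and *Hba-a2* at chr11:32296489-32297298, plus strand. *Alas2* is at chrX:150547375-150570638, plus strand. Along each cluster the embryonic gene comes first in the direction of transcription. Promoters are shown for the 4 members for which the RefSeq table held the whole 120-base window, so that the letters can be read beside the age differences. Each is the 120 bases before the start of the gene, taken as the RefSeq or the GENCODE start, whichever lies further upstream (RefSeq, GRCm38.p6), written 5′ to 3′ along the gene. The RefSeq table held 7 of the 8 members. Capitals mark TATAA (the TATA box), CCAAT (the CAAT box), CACCC (the box of Krüppel-like factors) and GATAA (the core of GATA factors) on either strand.

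Hbb-y (embryonic beta, chr7:103853217-103853336, minus strand): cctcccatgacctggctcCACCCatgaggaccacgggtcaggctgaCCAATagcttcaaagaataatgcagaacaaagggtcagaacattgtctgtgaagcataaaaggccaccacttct

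Hbb-bt (adult-type beta, chr7:103813997-103814116, minus strand): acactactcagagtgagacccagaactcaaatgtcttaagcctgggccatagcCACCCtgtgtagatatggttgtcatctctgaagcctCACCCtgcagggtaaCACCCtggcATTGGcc

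Hba-a2 (adult-type alpha, chr11:32296369-32296488, plus strand): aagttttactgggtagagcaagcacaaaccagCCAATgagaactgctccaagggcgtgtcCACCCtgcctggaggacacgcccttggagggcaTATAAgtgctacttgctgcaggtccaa

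Alas2 (heme synthesis, chrX:150547255-150547374, plus strand): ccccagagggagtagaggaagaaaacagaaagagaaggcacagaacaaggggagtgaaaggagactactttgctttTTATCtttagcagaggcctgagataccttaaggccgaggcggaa

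*Hbb-y* held 1 CACCC and 1 CCAAT. *Hbb-bt* held 3 CACCC and 1 CCAAT on the opposite strand. The *Hbb-y*, *Hbb-bt*, *Hba-a2* and *Alas2* windows end 9, 73, 3 and 42 bases before the RefSeq start. *Hba-a2* held 1 CCAAT, 1 CACCC and 1 TATAA. *Alas2* held 1 GATAA on the opposite strand. No GATAA was found in the 3 globin windows. Of 32851 promoters, the 120 bases before the RefSeq start held CACCC in 31.7%, CCAAT in 21.3%, TATAA in 11.8% and GATAA in 10.5%, on either strand. The *Hbb-bt* and *Alas2* windows lie further upstream than that stretch, so these shares are not directly comparable with them. A match here is only a match of letters. CCAAT and CACCC do not overlap in these windows.

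Between E11.5 and E14.5 all 3 embryonic globins fell and *Hbb-bt*, *Hbb-bs* and, by a small margin, *Hba-a2* rose. *Hbb-bh1* lost nearly all of its RNA, *Hba-x* fell by 4.02 on the log2 scale and *Hbb-y* by 2.50, while *Hbb-bs* rose by 4.41. Of the 8 members, 3 were called higher and 4 lower at E14.5 (limma, adjusted p under 0.05 over 13650 genes), and 5 did not overlap between the ages. In all genes tested 23.8% were called higher and 29.3% lower, 30.5% did not overlap, and the median change of all genes was -0.08.

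*Hbb-y*, the major beta-type chain of primitive red cells, was 33991, 32189 and 25378 for E11.5 mutants A to C, against 29612, 27389 and 39742 for controls D to F. E14.5 values were 6765, 6897 and 6761 for mutants 1, 2 and 6, against 3403, 4745 and 5407 for controls 3 to 5. Every E11.5 value lay above every E14.5 value (log2 fold change -2.50 ± 0.15 SE, adjusted p = 1.91e-09).

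*Hbb-bh1*, the other embryonic beta-type chain, was 5609.5, 3261 and 4118 for the E11.5 mutants, against 4600.1, 2617 and 4563 for the E11.5 controls. E14.5 values were 13.5, 22.1 and 23.5 for the mutants, against 18.8, 38.5 and 15.7 for the controls, which rests on only 12 to 53 reads per library. The groups did not overlap, and *Hbb-bh1* had the largest change of the 8 (log2 fold change -7.52 ± 0.22 SE, adjusted p = 8.53e-13). It made up 8.72% to 14.2% of embryonic beta reads at E11.5 and 0.2% to 0.804% at E14.5, and *Hbb-y* made up the rest.

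*Hba-x*, the embryonic alpha-type (zeta) chain, was 9588, 9069 and 8840.0 for the E11.5 mutants, against 9378, 4219.8 and 11574 for the E11.5 controls, with control E lowest. E14.5 values were 531, 583 and 539 for the mutants, against 469, 541 and 458 for the controls. The E14.5 values lay close together, and no value overlapped between ages (log2 fold change -4.02 ± 0.17 SE, adjusted p = 4.77e-11).

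*Hbb-bs*, an adult beta chain, was 525, 410.5 and 231 for the E11.5 mutants, against 593, 345 and 621 for the E11.5 controls. E14.5 values were 7009.7, 9649 and 7531 for the mutants, against 10514, 12836 and 8752 for the controls. Every E14.5 value lay above every E11.5 value (log2 fold change 4.41 ± 0.19 SE, adjusted p = 3.64e-11). Its neighbour *Hbb-bt* started higher and rose less. *Hbb-bt* was 2039 to 3029.7 at E11.5 and 4788 to 6815 at E14.5 over 6 cortices each (log2 fold change 1.24 ± 0.11 SE, adjusted p = 9.77e-08). Within adult-type beta reads the share of *Hbb-bs* went from 15.3% ± 2.91 (SD, n = 6) to 61.5% ± 2.48, so that *Hbb-bt* held most adult-type beta reads at E11.5 and *Hbb-bs* at E14.5. Of the 50-base windows in the last 300 bases of the *Hbb-bs* transcript, 36.7% also occur in *Hbb-bt*, so some reads cannot be assigned to either with certainty.

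The 2 adult alpha genes encode alpha chains used by both primitive and later red cells, and their levels changed less than those of the other globins. *Hba-a1* had a lowest, median and highest value of 5654, 7540.2 and 10963 at E11.5 and 6158, 6724 and 7511 at E14.5 (log2 fold change -0.16 ± 0.14 SE, adjusted p = 0.351), with a 95% interval of the log2 difference from -0.47 to 0.14. *Hba-a2* had 8074, 9743 and 13625 at E11.5 and 11462, 13250.4 and 14779 at E14.5, with overlapping groups (log2 fold change 0.38 ± 0.13 SE, adjusted p = 0.0231). Without the 4 cortices that held liver transcripts the *Hba-a2* call was lost (log2 fold change 0.11, adjusted p = 0.624), and over all alternatives and left-out cortices its adjusted p ran from 0.00487 to 0.624. The split between the 2 genes is uncertain, since 80.1% of 50-base windows in the last 300 bases of *Hba-a1* also occur in *Hba-a2*, and 73.7% the other way.

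*Alas2* encodes the erythroid form of the first enzyme of heme synthesis. It was 95.2 to 179 at E11.5 and 67.1 to 104 at E14.5, with overlap (log2 fold change -0.61 ± 0.16 SE, adjusted p = 0.00347). Per 1000 globin reads it was 2.06 ± 0.189 (SD, n = 6) at E11.5 and 2.1 ± 0.319 at E14.5, a difference below the spread between embryos (exact permutation test within genotype, p = 0.775). By genotype this ratio was 2.13 to 2.58 in mutants and 1.76 to 2.08 in controls at E14.5, without overlap (exact permutation test, p = 0.1, the smallest possible). At E11.5 it was 1.74 to 2.19 and 2.03 to 2.25, with overlap (exact permutation test, p = 0.3).

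**Figure D1:**
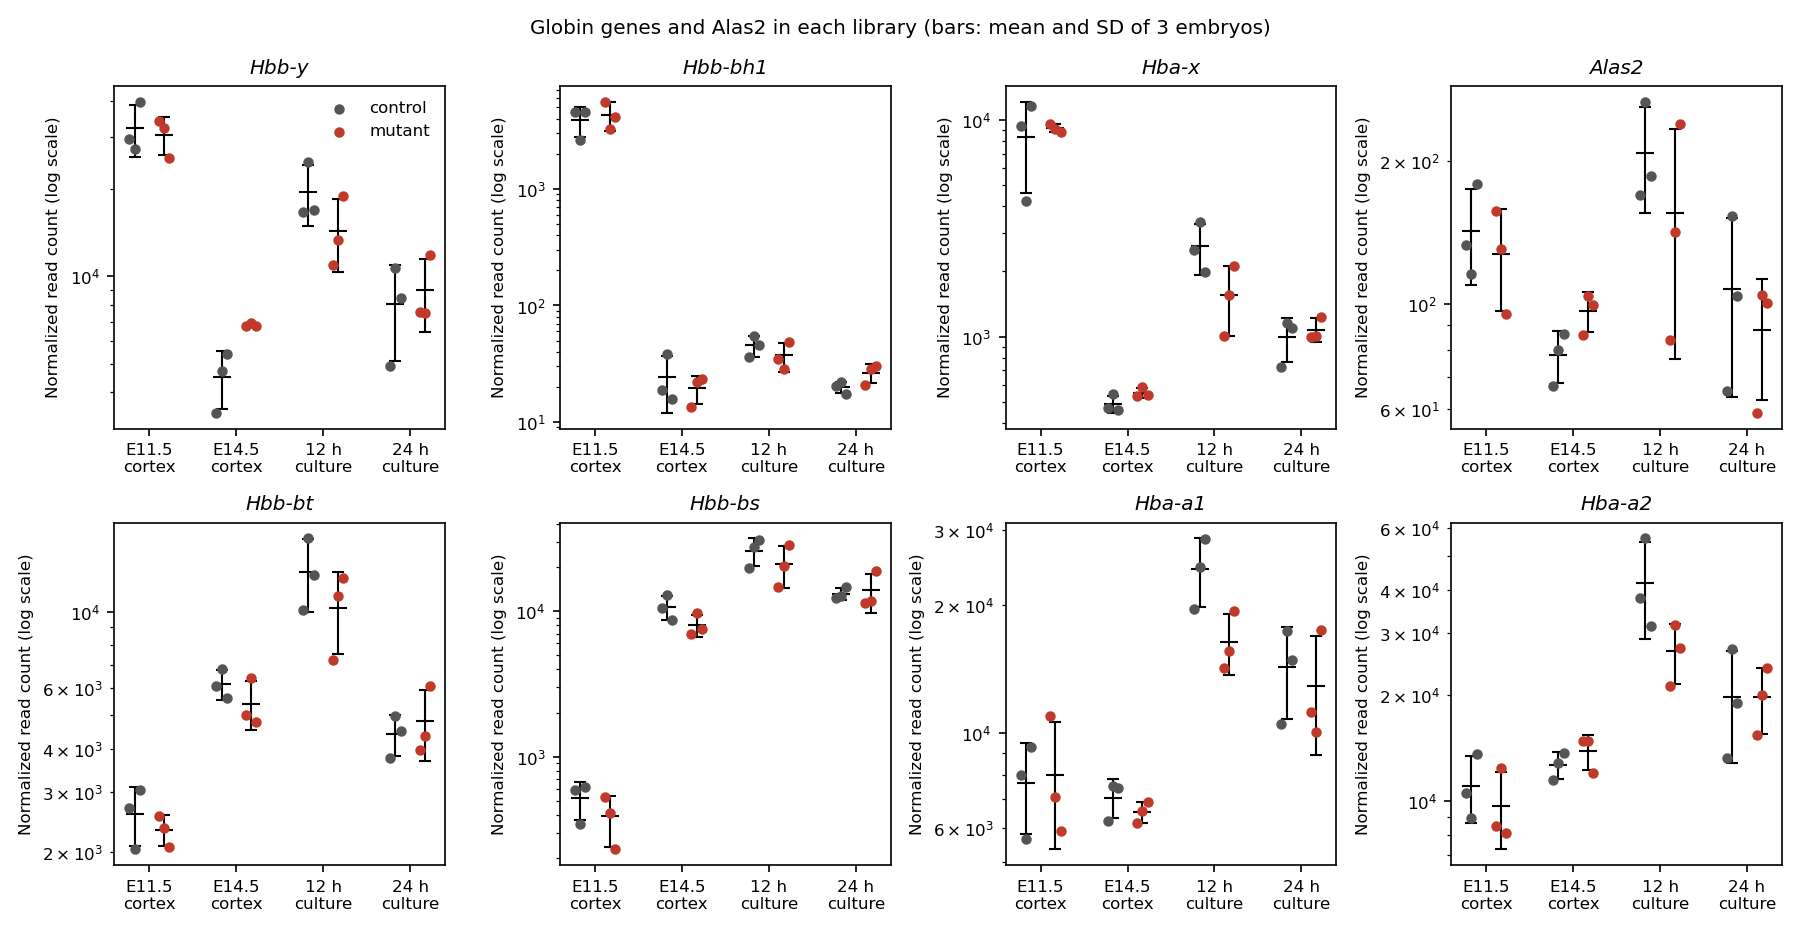
Normalized read count on a log axis for each member (panels) in the 4 conditions, grey for controls and red for mutants. Points are libraries and bars are the mean and SD of 3 embryos. The embryonic globins fall from E11.5 to E14.5 cortex, with Hbb-bh1 going from 2617 or more to 38.5 or less, and Hbb-bs rises.

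A share of reads within 1 library does not depend on its size factor. The embryonic share of beta-globin reads (*Hbb-y* and *Hbb-bh1* over all 4 beta members) was 92.4% ± 0.597 (SD, n = 6) at E11.5 and 27.6% ± 7.94 at E14.5. The embryonic share of alpha-globin reads (*Hba-x* over the 3 alpha members) was 32.2% ± 5.34 and 2.53% ± 0.227. Both shares separated the ages without overlap (exact permutation test with age permuted within genotype, two-sided, p = 0.005, the smallest that 400 arrangements allow). The adjusted p of this test was 0.0225 over 18 tests, those of both embryonic shares and of the summed globin level. In each of the 12 cortices the beta share was above the alpha share.

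The summed level of the 7 globins was 51194 to 82421 at E11.5 and 38177 to 45276 at E14.5, a mean log2 difference of -0.64 (exact permutation test within genotype, p = 0.005, adjusted p = 0.0225, lower in E14.5 with no overlap). As a share of all normalized counts it was 0.921% ± 0.157 (SD, n = 6) and 0.582% ± 0.0425. Without the 4 cortices with liver transcripts the log2 difference was -0.73, and the beta and alpha share differences were -66.9 and -28.2 percentage points. Only mutant B was then left of the E11.5 mutants, and only control 3 of the E14.5 controls. The smallest p that remains there is 0.0625. The titles of the E11.5 cortices carry other prefixes than those of the E14.5 cortices, so age and what a prefix stands for, such as a litter, cannot be told apart.

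Most other red cell genes were lower at E14.5. Of 26 red cell membrane, chaperone and enzyme genes in the table, 19 passed the low-value filter. Of these, 15 were lower at E14.5 and 1 was higher, with a median log2 change of -1.78 beside -0.08 over all genes. *Hemgn*, an erythroid nuclear protein, was 106 to 155 at E11.5 and 0 to 9.03 at E14.5 (log2 change -5.89 ± 0.46, adjusted p = 3.01e-08). *Slc4a1*, the band 3 anion exchanger, was 211 to 431 at E11.5 and 41.2 to 84.7 at E14.5 (log2 change -2.31 ± 0.19, adjusted p = 4.85e-08). *Rhd*, of the Rh complex, fell as well (-3.62 ± 0.33, adjusted p = 1.93e-07), and the 1 gene that rose, *Add2* (1.27 ± 0.14, adjusted p = 1.31e-06), is also expressed in neurons.

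Of 9 erythroid and globin-switch transcription factors tested, 5 were lower and 1 higher at E14.5. *Klf1*, which activates adult beta-globin, was 15.1 to 37.3 at E11.5 and 0 to 2.21 at E14.5 (-3.88 ± 0.42, adjusted p = 1.09e-06). *Tal1* (-2.29 ± 0.17, adjusted p = 2.53e-08) and *Zfpm1* (-1.18 ± 0.17, adjusted p = 1.93e-05), both partners of GATA1, also fell. *Bcl11a*, a repressor of embryonic globins that cortical neurons express too, was 1522 to 2350.4 at E11.5 and 4126 to 4999 at E14.5 (log2 change 1.34 ± 0.09, adjusted p = 4.91e-09). Of 12 genes of heme synthesis and its carriers 0 were higher and 7 lower, among them *Slc25a37*, the mitochondrial iron importer (-1.06 ± 0.12, adjusted p = 1.39e-06), and *Tmem14c* (-0.83 ± 0.10, adjusted p = 4.18e-06). Among other cell types of blood and vessels, 3 of 4 platelet genes were lower and 1 higher, 6 of 10 endothelial genes lower and 1 higher, and 5 of 10 microglia genes higher. Their part in the globin values was not tested.

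Globin RNA was still present when the E14.5 cortices had been dissociated and cultured. At 12 h all 8 members were higher than in the E14.5 cortices (limma, 13601 genes, adjusted p from 2.90e-07 to 0.0271), where 14.1% of all genes were called higher and 16.1% lower. The log2 changes ran from 0.93 for *Hbb-bh1* to 1.91 for *Hba-x*, with a median of 1.31 beside -0.06 over all genes. In the same libraries RNA of endothelium, microglia and meninges was lower.

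*Hba-a1* at 12 h was 14233, 15574 and 19378 for mutants 1, 2 and 6, compared with 19608, 24537 and 28564 for controls 3 to 5, against 6158, 6556 and 6892 and 6222, 7511 and 7461 in their cortices. Each culture was 2.31 to 3.83 times its own cortex (log2 fold change 1.54 ± 0.12 SE, adjusted p = 2.90e-07). *Hba-x* was 1005, 1552 and 2110.4 for the mutants, against 2515, 3375 and 1993 for the controls, which is 1.89 to 6.24 times the cortex (log2 fold change 1.91 ± 0.20 SE, adjusted p = 3.41e-06). Embryonic and adult-type genes both rose, and 6 of the 8 members did not overlap between cortex and culture, beside 14.4% of all genes.

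*Hbb-y* was 10901, 13373 and 18816 in mutant and 16605, 24710.5 and 16938 in control cultures at 12 h (log2 fold change 1.57 ± 0.20 SE, adjusted p = 2.52e-05). *Hbb-bs* was 14731, 20576 and 28282 in mutant and 19719.6, 27718 and 30772 in control cultures (log2 fold change 1.32 ± 0.16 SE, adjusted p = 1.88e-05). In both genes every culture lay above every cortex. *Hba-a2* (log2 fold change 1.31 ± 0.17 SE, adjusted p = 3.37e-05) and *Hbb-bt* (log2 fold change 0.98 ± 0.14 SE, adjusted p = 1.17e-04) showed the same order. *Hbb-bh1* stayed low, with 28.4 to 55.2 in culture from 23 to 60 reads, and overlapped the cortices (log2 fold change 0.93 ± 0.30 SE, adjusted p = 0.0271). *Alas2* was 83.8 to 268 and was above the cortex in 5 of 6 embryos (log2 fold change 0.97 ± 0.24 SE, adjusted p = 0.00616).

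The 7 globins together made up 1.26% ± 0.291 (SD, n = 6) of normalized counts at 12 h and 0.582% ± 0.0425 in the cortices, and the sum was 1.72 to 3.38 times that of the same embryo's cortex. Over the same step 10 of 10 endothelial genes, 9 of 9 microglia and macrophage genes tested and 7 of 7 meningeal and pericyte genes were lower, with median log2 changes of -4.01, -4.57 and -3.67. Their summed levels in culture were 0.031 to 0.124, 0.00614 to 0.0838 and 0.0496 to 0.104 times the cortex. Markers of dorsal telencephalon were 0.755 to 0.94 times the cortex. Globin RNA was higher while the RNAs of vessel wall, microglia and meninges were lower in the same libraries.

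Other erythroid genes could be tested at 12 h only where they passed the low-value filter. Over all genes 14.1% were called higher and 16.1% lower. Of 26 red cell genes 12 passed it, of which 1 was higher and 4 lower, with a median log2 change of -0.23. The higher gene was *Tfrc*, the transferrin receptor (0.83 ± 0.13, adjusted p = 1.98e-04), which dividing cells of many types use. *Slc4a1* (-1.25 ± 0.32, adjusted p = 0.00871), *Epb41* (-0.45 ± 0.13, adjusted p = 0.0144) and *Blvrb* (-0.80 ± 0.27, adjusted p = 0.0357) were lower. Of 12 transcription factors 8 passed the filter. Of these, 2 were lower, *Lmo2* (-1.45 ± 0.32, adjusted p = 0.00291) and *Tal1* (-1.65 ± 0.58, adjusted p = 0.0408), both of which endothelium also expresses, and 0 higher. Of 12 heme synthesis genes 4 were lower and 0 higher, with the smallest p for *Fech* (-0.88 ± 0.21, adjusted p = 0.0046), *Urod* (-0.57 ± 0.14, adjusted p = 0.00647) and *Slc25a37* (-0.59 ± 0.18, adjusted p = 0.0242). *Gata1* was 0 to 12.9 in the 12 h cultures, and *Klf1* was below 1 in each.

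Liver transcripts were above 100 in 5 of 6 cultures at 12 h and in 2 of 6 E14.5 cortices (sums of 1.57 to 1612 and 6.26 to 1154). Control 3 had a liver sum of 10.6 in cortex, 1.57 at 12 h and 6.83 at 24 h, and its globin sum went from 38177 to 106437, a ratio of 2.79, within the range of the other 5 embryos. That is 1 embryo, and the part of liver transcripts in the globin values was not tested. With the liver sum as a term in the fit, 7 of 8 members were called higher, and *Hbb-bh1* lost its call (log2 fold change 0.83, adjusted p = 0.0728). Over all 13601 genes that fit called 3587 in either direction, against 4107 without the term.

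**Figure D2:**
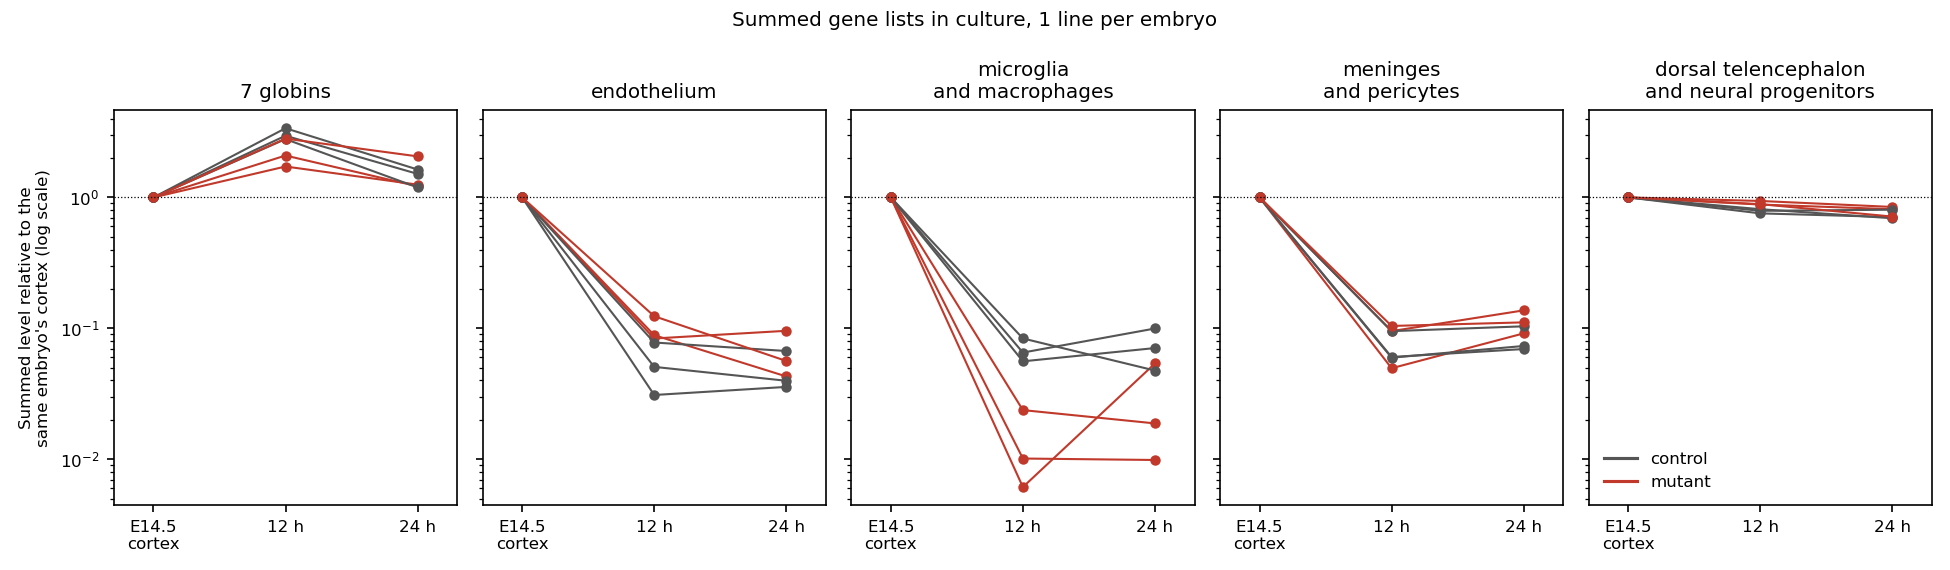
Summed level of 5 gene lists relative to the cortex of the same embryo, on a log axis, at 12 and 24 h. Each line is 1 embryo, grey for controls and red for mutants. The globin sum is 1.72 to 3.38 times the cortex at 12 h, while the endothelial, microglial and meningeal sums at 12 h are at 0.124 times the cortex or less.

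At 24 h globin RNA was lower again. All 8 members had lower values at 24 h than at 12 h in 6 of 6 embryos, and 3 passed the test, *Hbb-bt*, *Hbb-y* and *Hbb-bs* (limma, 13359 genes, where 0.15% of all genes were called higher and 0.142% lower). The smallest decrease was that of *Hbb-bh1* in mutant 2, from 28.41 to 28.34, which rests on 27 and 28 reads. *Hbb-bt* had the largest change and was the 1 member without overlap, beside 0.928% of all genes. It was 3975, 4354 and 6075 for the mutants, against 3759, 4979.7 and 4493 for the controls (log2 fold change -1.32 ± 0.15 SE, adjusted p = 3.52e-04). *Hbb-y* was 7532, 7515 and 11862 for the mutants, against 4936, 10679 and 8462 for the controls (8498 at 24 h and 16891 at 12 h on average, SE 0.19 on the log2 scale, adjusted p = 0.034), and *Hbb-bs* was 11296, 11674 and 18769.5 in mutant and 12316, 12640.5 and 14615 in control cultures (log2 fold change -0.78 ± 0.16 SE, adjusted p = 0.0423).

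The other 5 members had log2 changes of -0.94 for *Hba-x* (adjusted p = 0.0506), -0.87 for *Alas2* (0.219), -0.80 for *Hbb-bh1* (0.351), -0.77 for *Hba-a2* (0.0924) and -0.58 for *Hba-a1* (0.138), by the same limma test. With the embryo as a replicate block, which compares the paired cultures of 1 embryo, 7 of 8 members were lower and only *Hbb-bh1* was not called (adjusted p = 0.33). With the liver sum as a term 1 of 8 was called, *Hbb-bt* (adjusted p = 0.0122), beside 12 of all genes. The count over all genes with the block is given with the processing results. Leaving out 1 library gave 1 to 5 calls, beside 19 to 44 over all genes. *Hbb-bt* was called in all 12 of those limma fits, *Hbb-y* lost its call in 5 of 12 (adjusted p up to 0.0974) and *Hbb-bs* in 10 of 12 (adjusted p up to 0.123), while *Hba-x* was called in 8 of 11 alternatives. The count of called members changed with the fit, and liver transcripts also differed between the times (1.57 to 1612 at 12 h, 1.69 to 463 at 24 h).

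Compared with the cortex, the globin sum at 24 h was still 1.19 to 2.06 times as high in the 6 embryos. *Hba-a1* was 1.53 to 2.54 times and *Hba-x* 1.55 to 2.39 times the cortex, while *Hbb-bt* was 0.617 to 1.27 times and above the cortex in 1 of 6 embryos. Within adult-type beta reads the share of *Hbb-bs* was 61.5% ± 2.48 in E14.5 cortex (SD, n = 6), 66.8% ± 2.86 at 12 h and 74.5% ± 2.01 at 24 h, and the 24 h cultures (71.7 to 76.6%) lay above every 12 h culture (62.9 to 70.7%). The alpha embryonic share was 2.53% ± 0.227, 3.62% ± 0.648 and 3.06% ± 0.356 in the same order, below every E11.5 cortex.

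**Figure D3:**
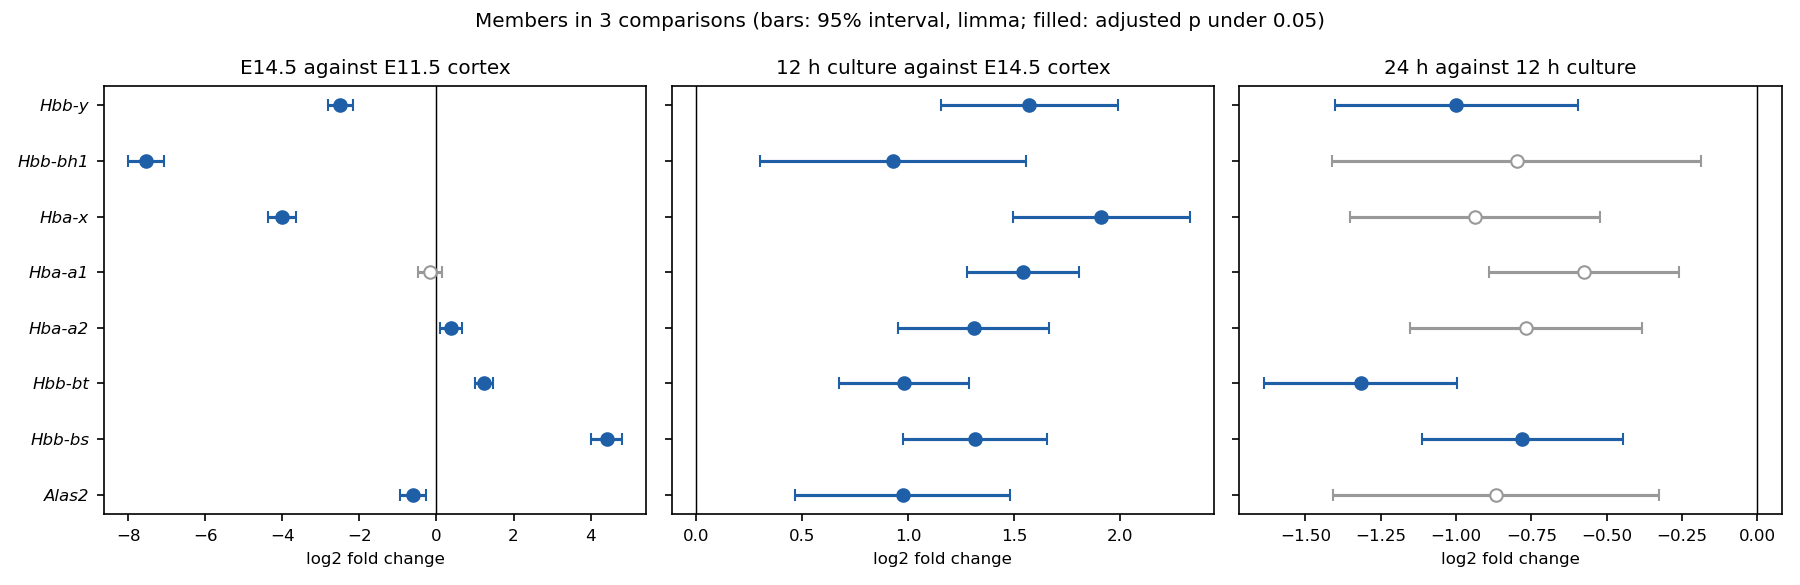
Log2 fold change of each member (rows) between ages, between 12 h culture and E14.5 cortex, and between 24 and 12 h of culture. Bars are 95% intervals from limma and filled points had an adjusted p under 0.05. The age panel splits the members by type, from -7.52 for Hbb-bh1 to 4.41 for Hbb-bs, all 8 lie above 0 at 12 h and all 8 lie under 0 at 24 h.

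Mutants were compared with controls in each condition, which asks whether loss of CEP135, a centriole protein, went with a different globin RNA. No member was called in any of the 4 conditions (limma, adjusted p of 0.367 or more). The shares of all genes called were 0.0149% at E11.5, 0.0736% at E14.5, 0% at 12 h and 0.271% at 24 h. At an unadjusted p under 0.05 (limma) there were 0, 2, 4 and 0 of the 8 members. Among all genes tested there were 991 of 13406, 1236 of 13583, 650 of 13389 and 1414 of 13300. At 12 h, where limma called 0 genes, edgeR called 0 and DESeq2 9 of all genes.

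In E14.5 cortex *Hbb-y* was the member with the smallest p. It was 6765, 6897 and 6761 for the mutants, against 3403, 4745 and 5407 for the controls, without overlap (log2 difference 0.62 ± 0.17 SE, adjusted p = 0.367). Groups did not overlap for 13.7% of all genes in this comparison, and for 1 of 8 members. *Hbb-bs* went the other way (7009.7, 9649 and 7531 in mutants, 10514, 12836 and 8752 in controls, log2 difference -0.40 ± 0.18, adjusted p = 0.532), with overlap. The other 6 members had log2 differences of -0.22 to 0.31.

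The embryonic share of beta reads at E14.5 was 36.0, 30.1 and 35.5% for mutants 1, 2 and 6, compared with 17.1, 19.6 and 27.4% for controls 3 to 5. All mutants lay above all controls, by 12.5 percentage points on average (two-sided exact permutation test, p = 0.1, the lowest possible with 3 embryos a group). At E11.5 the share was 92.8, 92.8 and 92.8% for the mutants, against 91.3, 92.6 and 92.4% for the controls, again higher in 3 of 3 mutants but by 0.683 points (exact permutation test, p = 0.1). Leaving out 1 cortex of E11.5 gave 0.265 to 0.955 points, with the lowest value without control D. Mutant A and control D share 1 title prefix and differed by 1.53 points, and the other 4 share another and differed by 0.257 points on average. In their descriptions, however, mutants B and C carry a prefix that differs from that of controls E and F. Over the 12 cortices, with genotype permuted within age, the mean difference was 6.60 points (exact permutation test, p = 0.005, adjusted p = 0.0225 over 18 tests). With genotype permuted within age and title prefix, p was 0.00833 (exact permutation test, the smallest its 240 arrangements allow). Under the prefixes of the descriptions, mutants B and C could not be exchanged with controls E and F, and that permutation was not run. Leaving out 1 cortex gave 5.53 to 8.12 points, and the exact permutation p ran from 0.005 to 0.085, above 0.05 without mutant 1 or without mutant 6 of E14.5. The alpha share overlapped, with 2.47, 2.66 and 2.77% for the mutants, against 2.59, 2.59 and 2.12% for the controls at E14.5 (exact permutation test, p = 0.4).

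Liver transcripts were present in controls 4 and 5 and not in the other 4 E14.5 cortices. Control 3, without them, had the lowest share of the 6. Markers of microglia and macrophages summed to 972 to 1200.1 in mutant and 524 to 639 in control cortices at E14.5, and endothelial markers to 1316 to 1521 and 1269 to 1469.9. At E11.5 endothelial markers summed to 1787 to 1907 in mutant and 1561 to 1722 in control cortices, platelet markers to 322 to 341 and 204 to 301, both without overlap, and microglial markers to 537 to 769.6 and 337 to 542. The part of these cells, and of liver transcripts, in the share was not tested. Without the 4 cortices that held liver transcripts the difference over both ages was 8.74 points. Only mutant B was then left of the E11.5 mutants, and only control 3 of the E14.5 controls. In culture the genotypes overlapped. At 12 h the share was 33.3, 29.7 and 31.6% for the mutants, against 35.8, 36.0 and 28.1% for the controls, and at 24 h 33.1, 32.0 and 32.4% and 23.6, 37.8 and 30.7% (exact permutation tests, p = 0.6 and 0.7). From cortex to 12 h culture the share changed by -2.79, -0.373 and -3.89 points for the mutants, against 18.7, 16.4 and 0.644 for the controls (exact permutation test of the difference, p = 0.1, the smallest possible). The interaction of genotype and culture for *Hbb-y* was -1.06 ± 0.30 on the log2 scale (limma, adjusted p = 0.793, with 0% of all genes called).

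**Figure D4:**
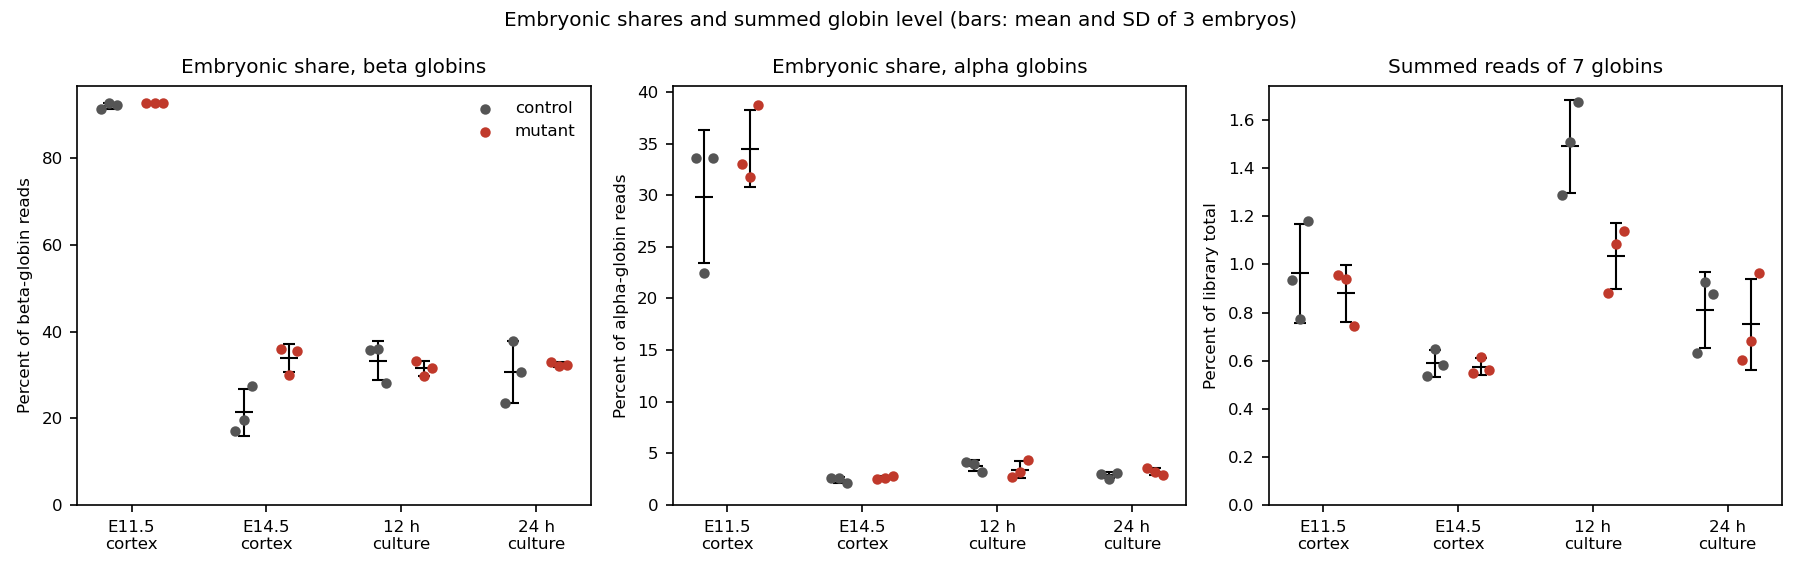
Embryonic share of beta-globin reads, embryonic share of alpha-globin reads and summed globin reads as a percent of the library total, in the 4 conditions. Points are libraries, grey for controls and red for mutants, and bars are the mean and SD of 3 embryos. In E14.5 cortex the beta share is 30.1% to 36% in mutants and 17.1% to 27.4% in controls, and the groups overlap in culture.

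At 12 h all 8 members were lower in mutants, by 0.30 to 0.79 on the log2 scale, and none was called (adjusted p of 0.913 or more). *Hba-a1* was the 1 member without overlap, where 11% of all genes did not overlap (14233, 15574 and 19378 in mutants, 19608, 24537 and 28564 in controls, log2 difference -0.56 ± 0.16 SE, 95% interval -0.91 to -0.21, adjusted p = 0.913). The globin sum was 0.881 to 1.14% of the library in mutants and 1.29 to 1.67% in controls, without overlap (exact permutation test, p = 0.1, the smallest possible), but as a normalized read count the groups overlapped (69356, 93822 and 108380.0 in mutants, 106437, 152838 and 122505 in controls, p = 0.2). At 12 h microglia markers summed to 7.37 to 25.3 in mutants and 29.4 to 45.6 in controls, and endothelial markers to 119.9 to 163 and 45.6 to 99.8, and their part in the globin values was not tested. The library total includes *Gm42418*, an RNA with ribosomal sequence that took 6.11% to 34.8% of normalized counts in the 24 libraries. With *Gm42418* left out of the total, the genotypes at 12 h were no longer fully separated (exact permutation test on the log2 percent, p = 0.2).

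At E11.5 the 8 log2 differences between mutants and controls ran from -0.45 for *Hbb-bs* to 0.25 for *Hba-x*, with 0 members without overlap beside 13.3% of all genes. At 24 h they ran from -0.25 for *Alas2* to 0.38 for *Hbb-bh1*, with 0 members without overlap beside 16.2% of all genes. The 95% intervals were wide: for *Hba-x* -0.40 to 0.90 at E11.5, and for *Hbb-y* -0.30 to 0.70 at 24 h, so differences within these bounds were not resolved with 3 embryos a group. At 24 h liver transcripts were 127 to 463 in mutants and 1.69 to 6.83 in controls, and their part in the globin values was not tested. Whether the age difference depended on genotype was tested as well, and 0 members passed, of 0% of all genes called. The largest term was *Hbb-y* at 0.69 ± 0.25 on the log2 scale (limma, adjusted p = 0.62). For interactions 1070 genes (age) and 724 genes (culture) had an unadjusted p under 0.05, and edgeR and DESeq2 called 1 and 5 genes in the culture interaction.

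The non-member genes whose log2 levels followed the summed embryonic globins most closely over the 12 cortices were *Hip1*, *Exo1*, *Hmga2*, *Gnai2* and *Limd1* (Pearson r 0.989 to 0.993 across 13650 genes), and those that followed the adult-type sum were *Cpne6*, *Fcho1*, *Brinp3*, *Hpcal4* and *St8sia3* (r 0.962 to 0.978). Over all 24 libraries they were *Set*, *Parp1*, *Cbx5*, *Serbp1* and *Pabpc4* for the embryonic sum (r 0.893 to 0.927 across 13678 genes) and *Ube3a*, *Appl1*, *Zfp668*, *Cdk17* and *Cdk14* for the adult-type sum (r 0.907 to 0.923). These values describe libraries that share ages and embryos, and genes that differ between the ages also rank high over the 12 cortices.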

How the data were processed

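RNA was sequenced from the 3′ end with an oligo(dT) stranded kit (QuantSeq 3′ FWD). Per the study's methods and the submitters' processing notes, the authors checked reads with FastQC 0.11.7, aligned them to GRCm38 with TopHat 2.0.10 (using SAMtools 0.1.19 and, as aligner, Bowtie 1.0.0), and counted them by strand with HTSeq 0.6.1 on a GENCODE annotation. The authors used DESeq2 for differential expression, and the tool behind the deposited size factors is not given in the sources used here. The authors deposited 1 table of normalized read counts (a signal value, reads divided by 1 size factor per library) for 54658 genes and 24 libraries. All 484666 values above 0 in the 24 libraries were whole multiples, within 0.01, of the smallest value of their library, taken as 1 read. In E11.5 control D 1 read is worth 1.01, too close to 1 to tell division from rounding by the file's steps alone, so edgeR 4.0.16 and DESeq2 1.42.0 were run on whole reads, as alternatives, only in comparisons without that library. For 12 h culture against cortex edgeR called 3890 genes and limma 4107.

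Log2(value + 1) was tested with limma 3.58.1 (trend, R 4.3.3) over genes with a mean of at least 10, with Benjamini-Hochberg adjustment over all genes tested and a threshold of 0.05. Fold changes are on that scale, which understates changes of low genes. Shares and sums were compared with exact two-sided permutation tests over embryos. Adjustment covered the 18 tests of both embryonic shares and the summed globin level, and p-values of other shares and ratios are unadjusted. The scripts were tested on simulated data with known changes. All 8 members are named, and of each other list the 3 genes with the smallest p in each direction, of which 1 is not reported here. The members and lists were chosen with earlier results of these data known. The liver terms, the left-out liver libraries and the permutation within title prefixes were added after the data were seen. Cortex and cultures with the same number come from 1 embryo per the labels. Deviations from group means of paired libraries correlated at -0.111 to 0.158 (cortex and 12 h) and -0.0384 to 0.174 (12 and 24 h) over 13547 genes. Embryos are the replicates, with 3 per group, and p-values of comparisons with 1 library per embryo measure the spread between them. The fits of culture against cortex and of 24 against 12 h treat the paired libraries of an embryo as independent, except with the embryo block. No use of molecular identifiers is stated, so read numbers give counting precision only.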

Additional observations from a re-analysis of the deposited data

How the results depend on the processing

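The age comparison had 6 to 7 called members and the 12 h comparison 7 to 8 over the alternatives and left-out libraries run (over all genes 4923 to 7553 and 3118 to 5209 calls over the alternatives, and 6741 to 7204 and 3197 to 4706 with 1 library left out), while the 24 h against 12 h comparison moved from 3 called members to 5 with all 24 libraries in 1 fit, 6 with DESeq2, 7 with the embryo number as a replicate block and 1 with the liver sum as a term. Leaving out 1 library gave 1 to 5, beside 19 to 44 over all genes. The replicate block changed no other count of called members. All 24 libraries in 1 fit, DESeq2, the block and the liver term called 159, 160, 104 and 12 of all genes there, against 39. For mutants against controls the counts over all genes also moved: at E11.5 2 became 17 without a filter, 8 with all libraries and 0 with quantile scaling or with the title prefix as a block, at E14.5 10 became 31 without a filter, 64 with DESeq2 and 0 with the liver term, at 12 h 0 became 9 without a filter, 29 with all libraries and 9 with DESeq2, and at 24 h 36 became 140 without a filter, 182 with DESeq2 and 1 with the liver term. At 24 h every mutant had a higher liver sum than every control, so a fit with that term cannot separate liver transcripts from genotype. The genotype by culture term went from 0 genes to 3 with the replicate block.

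*Hba-a1* changed sign between ages with quantile scaling, to 0.011. With the liver sum as a term, log2 differences of mutants changed sign at E11.5 for *Hbb-y* (0.17), *Hbb-bh1* (-0.046), *Hba-a2* (0.28), *Hbb-bt* (0.011), *Hbb-bs* (0.053) and *Alas2* (0.13), at E14.5 for *Hba-a1* (0.065), and at 24 h for *Hbb-bh1* (-0.22), *Hbb-bt* (-0.43), *Hbb-bs* (-1.34) and *Alas2* (0.27), and none was called. At 24 h the liver sum was 127 to 463 in mutants and 1.69 to 6.83 in controls. The liver term and genotype cannot be told apart there. Without the 4 cortices with liver transcripts the beta share, alpha share and summed level differed between ages by -66.9 points, -28.2 points and -0.73 (log2). Between genotypes the beta share then differed by 8.74 points and the summed level by 0.072. Only mutant B was left of the E11.5 mutants, and only control 3 of the E14.5 controls. The cause was not tested.

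Leaving out 1 embryo turned the sign of uncalled genotype differences, with log2 ranges at E11.5 of -0.18 to 0.089 for *Hbb-y*, -0.12 to 0.34 for *Hbb-bh1*, -0.19 to 0.54 for *Hba-x*, -0.21 to 0.24 for *Hba-a1* and -0.33 to 0.030 for *Alas2*, at E14.5 of -0.47 to 0.15 for *Hbb-bh1*, and at 24 h of -0.12 to 0.44 for *Hbb-y*, -0.070 to 0.26 for *Hba-x*, -0.40 to 0.0027 for *Hba-a1*, -0.22 to 0.29 for *Hba-a2*, -0.075 to 0.23 for *Hbb-bt*, -0.20 to 0.17 for *Hbb-bs* and -0.56 to 0.044 for *Alas2*. The beta share difference ranged from 5.53 to 8.12 points over 12 cortices, from 0.265 to 0.955 at E11.5 and from -1.77 to 5.34 at 24 h. The summed level ranged from -0.11 to 0.066 over 12 cortices, -0.20 to 0.14 at E11.5, -0.076 to 0.050 at E14.5 and -0.18 to 0.17 at 24 h. A minimum mean of 50 left no value for *Hbb-bh1* in comparisons without E11.5, where it rests on 12 to 60 reads. edgeR and DESeq2 were not run for comparisons that include E11.5.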

Other observations

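Of 8 other globin genes, 2 passed the low-value filter between ages. *Cygb*, cytoglobin, which is made outside red cells, was 37.5 to 59.1 at E11.5 and 239 to 397 at E14.5 (limma log2 change 2.53, adjusted p = 1.42e-09), and it was 161 to 368 at 12 h. *Hbb-bh0*, a beta-like gene of the same cluster, was 3.63 to 22.1 in E14.5 cortex and 23.4 to 79.7 at 12 h (log2 change 1.72, adjusted p = 0.00587). *Hbq1b*, a theta-type gene, was 4.03 to 17.1 at E11.5 and 0 to 4.36 at E14.5.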
